A study of Mus musculus with 8 samples.

Results

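Granzymes, perforin and the genes of the granule that carries them were followed in mouse Treg cells, the *Foxp3*+ CD4 T cells that restrain immune responses. The 10 genes *Gzma*, *Gzmb*, *Gzmc*, *Gzmd*, *Gzme*, *Gzmf*, *Gzmk*, *Prf1*, *Srgn* and *Nkg7* were chosen by name from the 53465 gene identifiers of the files, and all 10 were found. Granzymes are serine proteases that are stored in secretory granules and cleave proteins of a target cell, which they enter through pores made by perforin, the product of *Prf1*. Inside the granule they are bound to serglycin, a proteoglycan encoded by *Srgn*, and NKG7 is a protein of the granule membrane that takes part in granule release. The system is best known from NK cells and CD8 T cells, and activated Treg cells also make granzyme B, one of their means of suppression.

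All mice were labelled C57BL/6 and 3 to 4 weeks old, and carried R26CAG-FlpoER, a tamoxifen (TAM)-inducible Flp recombinase under the ubiquitous CAG promoter. The Cre of Foxp3YFP-Cre is made in Treg cells and removes the floxed allele BrgF of *Brg1* (*Smarca4*), a chromatin-remodelling ATPase, and ΔR is a gene-trapped, GFP-marked null allele that Flp turns back into a working one. The ΔR strain was made on a mixed background with 129 Sv and backcrossed to C57BL/6 for fewer generations than the others. In the total Treg experiment, the WT library carried BrgF/+ with Foxp3YFP-Cre/+. The study describes such controls as heterozygous for *Brg1*, so that in this series WT does not stand for cells with 2 working alleles. From mosaic females came a *Brg1*-sufficient library labelled BrgF/ΔR *Foxp3*+/+ and a *Brg1*-deleted library labelled BrgF/ΔR Foxp3YFP-Cre, both from healthy hosts. The rKO1 mice are inflamed. They gave an untreated library (BrgF/deltaR Foxp3YFP-Cre/YFP-Cre) and, on Day 7 after a low dose of TAM, a GFP+ *Brg1*-deleted library of the same genotype and a GFP- *Brg1*-reexpressed library labelled BrgF/+. In the aTreg experiment, sequenced separately, 2 libraries of activated (CD44hi CD62Llo) Treg cells, also from rKO1 mice given TAM and sorted on Day 7, are labelled *Brg1*-deleted (BrgF/F) and *Brg1*-reexpressed (BrgF/+). Each condition was 1 library from the same number of sorted cells of spleen and lymph nodes, so no difference below has a replicate check and no p-value is given. How many mice were pooled is not given in the sources used here.

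Depth was 16324016 to 24093552 reads on genes. *Smarca4* was at 14.8 FPKM in the WT library, 12.1 and 7.44 in the mosaic *Brg1*-sufficient and *Brg1*-deleted libraries, 7.34 in the untreated rKO1 library and 6.13 and 9.52 in the GFP+ and GFP- libraries, an order that follows the labels. In the aTreg pair it went against them, with 11.1 FPKM in the library labelled *Brg1*-deleted and 9.02 in the one labelled *Brg1*-reexpressed, and the values of the former are headed as WT in its own file. Those libraries are therefore called by their labels below, and every direction drawn from them depends on the labels. *Foxp3* was at 13.4 to 62.7 FPKM in 7 libraries and at 137 in the mosaic *Brg1*-sufficient one, and all 6 Treg markers were detected in every library. The 4 Y-linked genes looked at had 0 reads in the WT and both mosaic libraries and had reads in all 5 rKO1 libraries, and *Xist* had 10 reads in the untreated rKO1 library against 217 to 3995 in the others. Inflammation, genotype and sex of the mice thus cannot be told apart where rKO1 libraries are set against WT or mosaic ones. The label of the untreated library gives a pair of Foxp3YFP-Cre alleles, as only females can carry on this X-linked gene, and its *Xist* and Y-linked reads go against that.

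Values are FPKM, reads per kilobase of exon scaled to the size of the library, which allow levels of different genes to be compared. For all 10 genes the values were whole multiples of 1 read, and the reads so recovered are given in brackets. Intervals are exact 95% binomial intervals of the ratio, which cover counting error only, and 3 reads were taken as the floor. Since these are bulk RNA samples, more cells that make a transcript and more transcript per cell cannot be told apart.

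The genes lie in 3 places and 1 single locus of the mouse genome (GRCm38, GENCODE M21). *Gzmb* (chromosome 14, 56258838 to 56262260), *Gzmc* (56231441 to 56234656), *Gzmf* (56205263 to 56211417), *Gzmd* (56129556 to 56132608) and *Gzme* (56117626 to 56120625) form a cluster, with 24.2 kb between *Gzmc* and *Gzmb* and 20023 bases between *Gzmf* and *Gzmc*. *Gzma* (chromosome 13, 113093825 to 113100981) and *Gzmk* (113171608 to 113225908) are 70.6 kb apart. *Prf1* (61297833 to 61304680) and *Srgn* (62493833 to 62527451) are both on chromosome 10 but 1189 kb apart, and *Nkg7* is on chromosome 7 (43437073 to 43438249). The members of the cluster resemble each other: the longest transcripts of *Gzmd* and *Gzme* are 90.4% identical, those of *Gzmd* and *Gzmf* 83.4% and those of *Gzmc* and *Gzmf* 72.7%, against 48.5% for *Gzmb* and *Gzmc*. Stretches of 50 bases found exactly in another gene's transcripts made up 21.9% of those of *Gzmd*, 20.6% of *Gzme*, 19.4% of *Gzmf* and 4.14% of *Gzmc*, and none of those of *Gzma*, *Gzmb*, *Gzmk*, *Prf1*, *Srgn* and *Nkg7*. Of stretches of 150 bases, none were shared for *Gzmc*, *Gzmd* and *Gzme*, and 0.649% were for *Gzmf*, with *Gm4022*. Values of *Gzmf* are for this reason less certain, as 16.4% of the exon bases of *Gzmf* also overlap *Gm4022* on the other strand, from which this kit, which does not mark strand, cannot separate it.

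The sequence before the start of 4 granzymes is shown because these genes share a family but not a level: *Gzmb* and *Gzma* reached the highest levels of the granzymes in a single library, and *Gzmc* was detected in all 8 libraries whereas *Gzmd*, with a very similar upstream sequence, was at 0 reads in all. The sequences are from RefSeq (GRCm38.p6), 5′ to 3′ on the gene's strand, and capitals mark letters that match a Runx motif (TGTGGT), an AP-1 motif (TGANTCA) or a CRE (TGACGTCA) on either strand. None of these motifs overlap here.
*Gzmb*, chr14:56262335-56262584, minus strand: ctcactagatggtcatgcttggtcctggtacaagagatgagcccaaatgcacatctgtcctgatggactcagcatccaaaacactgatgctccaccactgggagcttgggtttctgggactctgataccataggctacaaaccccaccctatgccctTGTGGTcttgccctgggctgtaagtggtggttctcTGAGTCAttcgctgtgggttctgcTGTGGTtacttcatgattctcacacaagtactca
*Gzma*, chr13:113100982-113101231, minus strand: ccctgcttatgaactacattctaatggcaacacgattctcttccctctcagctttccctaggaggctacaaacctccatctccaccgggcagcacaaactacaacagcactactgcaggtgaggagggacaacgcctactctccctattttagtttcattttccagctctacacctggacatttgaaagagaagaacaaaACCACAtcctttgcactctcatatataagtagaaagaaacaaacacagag
*Gzmc*, chr14:56234658-56234907, minus strand: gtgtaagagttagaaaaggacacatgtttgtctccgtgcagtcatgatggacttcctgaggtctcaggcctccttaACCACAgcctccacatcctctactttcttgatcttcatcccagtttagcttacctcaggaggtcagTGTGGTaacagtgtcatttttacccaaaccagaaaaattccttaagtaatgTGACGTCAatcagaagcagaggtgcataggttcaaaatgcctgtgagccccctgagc
*Gzmd*, chr14:56132609-56132843, minus strand: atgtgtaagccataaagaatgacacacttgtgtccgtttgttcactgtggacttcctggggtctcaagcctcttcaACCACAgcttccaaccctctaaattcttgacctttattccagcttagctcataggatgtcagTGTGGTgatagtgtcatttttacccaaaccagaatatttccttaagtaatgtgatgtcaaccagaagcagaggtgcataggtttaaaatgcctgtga
Over the 250 bases before the RefSeq start, those of *Gzmc* and *Gzmd* were 82.8% identical and those of *Gzmd* and *Gzme* 95.2%, whereas those of *Gzma* and *Gzmb* were 48% identical. TGTGGT or its complement stood in these bases for 9 of the 10 genes, not *Gzmk*, and for *Srgn* in 1 of its 2 promoters, against 14.0% of all 32851 RefSeq promoters. These 9 are not separate observations, because *Gzmc*, *Gzmd*, *Gzme* and *Gzmf* have a pair of matches each in upstream sequences that are alike. *Gzmb* had 2 matches, 93 to 88 and 34 to 29 bases before its RefSeq start, with the AP-1 letters TGAGTCA between them. This start lay upstream of *Gzmb* as placed by GENCODE, so the distances hold for RefSeq only. AP-1 letters were in 6.75% of all promoters. The CRE stood before *Gzmc* and *Gzmf* (1.55% of all promoters). A T-box motif (AGGTGTGA, 1.12%) and a STAT motif (TTCNNNGAA, 7.02%) stood before the RefSeq start of *Nkg7* alone among the 10 genes. This T-box match lay inside *Nkg7* as placed by GENCODE. A match of letters is no measure of binding, and *Gzmd*, with a pair of TGTGGT matches like *Gzmc*, had no read.

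Granzyme B was the main granzyme of every library. *Gzmb* was at 33.8 FPKM (738 reads) in the WT library, 148 (4436) in the mosaic *Brg1*-sufficient library and 73.3 (2504) in the mosaic *Brg1*-deleted library. It was at 730 FPKM (18575) in the untreated rKO1 library, 265 (6347) in the GFP+ *Brg1*-deleted library and 1865 (42293) in the GFP- *Brg1*-reexpressed library. All 3 libraries of inflamed hosts were thus above all 3 of healthy hosts, and the span from the lowest to the highest was 55.1-fold. In the GFP- library *Gzmb* ranked 29 among all genes by FPKM, against 2051 in the WT library. In the aTreg pair it was at 51.6 FPKM (1293) in the library labelled *Brg1*-deleted and at 612 (17577) in the one labelled *Brg1*-reexpressed.

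Granzyme A, a trypsin-like protease whose gene lies apart on chromosome 13, spanned the widest range. *Gzma* was at 3.08 FPKM (47 reads) in the WT library, at 8.21 (172) in the mosaic *Brg1*-sufficient library and at 0 reads in the mosaic *Brg1*-deleted library, where a count of 0 allows up to 0.125 FPKM. In the rKO1 libraries it was at 31.8 FPKM (566) untreated, 38.1 (638) in the GFP+ and 520 (8252) in the GFP- library. As for *Gzmb*, the GFP- library was the highest and all 3 libraries of inflamed hosts were above all 3 of healthy hosts, but the GFP+ library was above the untreated one, the reverse of *Gzmb*. The aTreg libraries had 9.51 FPKM (167) under the label *Brg1*-deleted and 43.1 (867) under the label *Brg1*-reexpressed.

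Granzyme C, a member of the chromosome 14 cluster, came after *Gzmb* or after both *Gzmb* and *Gzma* in level. *Gzmc* was at 11.2 FPKM (152 reads) in the WT, 15.5 (289) in the mosaic *Brg1*-sufficient and 3.95 (84) in the mosaic *Brg1*-deleted library, and at 6.00 (95), 7.79 (116) and 67.1 (947) in the untreated, GFP+ and GFP- rKO1 libraries. Unlike *Gzma* and *Gzmb*, it was lower in both *Brg1*-deleted rKO1 libraries than in both controls, and those libraries did not differ beyond counting error (1.298-fold, 0.981 to 1.72). In the aTreg pair it was at 6.41 FPKM (100) and 18.1 (323) in the order of labels deleted and reexpressed.

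*Gzmf* and *Gzmk* were low in the libraries of healthy hosts, and *Gzmk* in every library. *Gzmf* was at 0.287 FPKM (4 reads) in the WT library, 1.52 (29) and 1.14 (25) in the sufficient and deleted mosaic libraries, and 3.69 (60), 3.40 (52) and 12.2 (177) in the untreated, GFP+ and GFP- rKO1 libraries. In the aTreg libraries labelled deleted and reexpressed it was at 0.125 (2) and 1.69 (31). *Gzmk*, a granzyme of memory-type T cells, was at 0.616 FPKM (13 reads), 1.97 (57), 0 (0), 0.976 (24), 3.72 (86) and 2.55 (56) in the same order, and at 0.577 (14) and 1.37 (38) in the aTreg libraries. *Gzmk* alone among the detected granzymes had its highest level in the GFP+ library, not the GFP- one. *Gzmd* and *Gzme* had 0 reads in all 8 libraries, which allows up to 0.205 and 0.216 FPKM in the library with the highest limit.

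Perforin was low throughout. *Prf1* was at 1.40 FPKM (55 reads) in the WT, 2.58 (139) in the mosaic *Brg1*-sufficient, 2.78 (171) in the mosaic *Brg1*-deleted, 1.97 (90) in the untreated, 1.79 (77) in the GFP+ and 5.96 (243) in the GFP- library, and at 1.66 (75) and 3.75 (194) in the aTreg libraries labelled deleted and reexpressed. The GFP- library was highest, and of the neighbours below it in the order of levels, the mosaic libraries did not differ from each other beyond counting error (1.08-fold, 0.856 to 1.36), nor did the untreated from the GFP+ library or the GFP+ from the WT library. The span of 4.25-fold was the narrowest of the 8 detected genes.

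Serglycin and NKG7 transcripts were abundant in every library. *Srgn* was at 701 FPKM (23392 reads) in the WT, 576 (26339) in the mosaic *Brg1*-sufficient, 393 (20543) in the mosaic *Brg1*-deleted, 821 (31911) in the untreated, 922 (33729) in the GFP+ and 2030 (70385) in the GFP- library, and at 841 (32246) and 1534 (67403) in the aTreg libraries labelled deleted and reexpressed. It ranked 23 among all genes in the GFP- library and 162 in the mosaic *Brg1*-deleted library. *Nkg7* was at 125 FPKM (1735) in the WT, 124 (2365) in the mosaic *Brg1*-sufficient, 187 (4060) in the mosaic *Brg1*-deleted, 1249 (20213) in the untreated, 619 (9426) in the GFP+ and 1112 (16047) in the GFP- library, and at 208 (3322) and 576 (10541) in the aTreg libraries. *Nkg7* was the only detected member other than *Gzmk* that was not highest in the GFP- library, and its WT and mosaic *Brg1*-sufficient values differed by less than counting error (1.005-fold, 0.945 to 1.07).

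**Figure D1:**
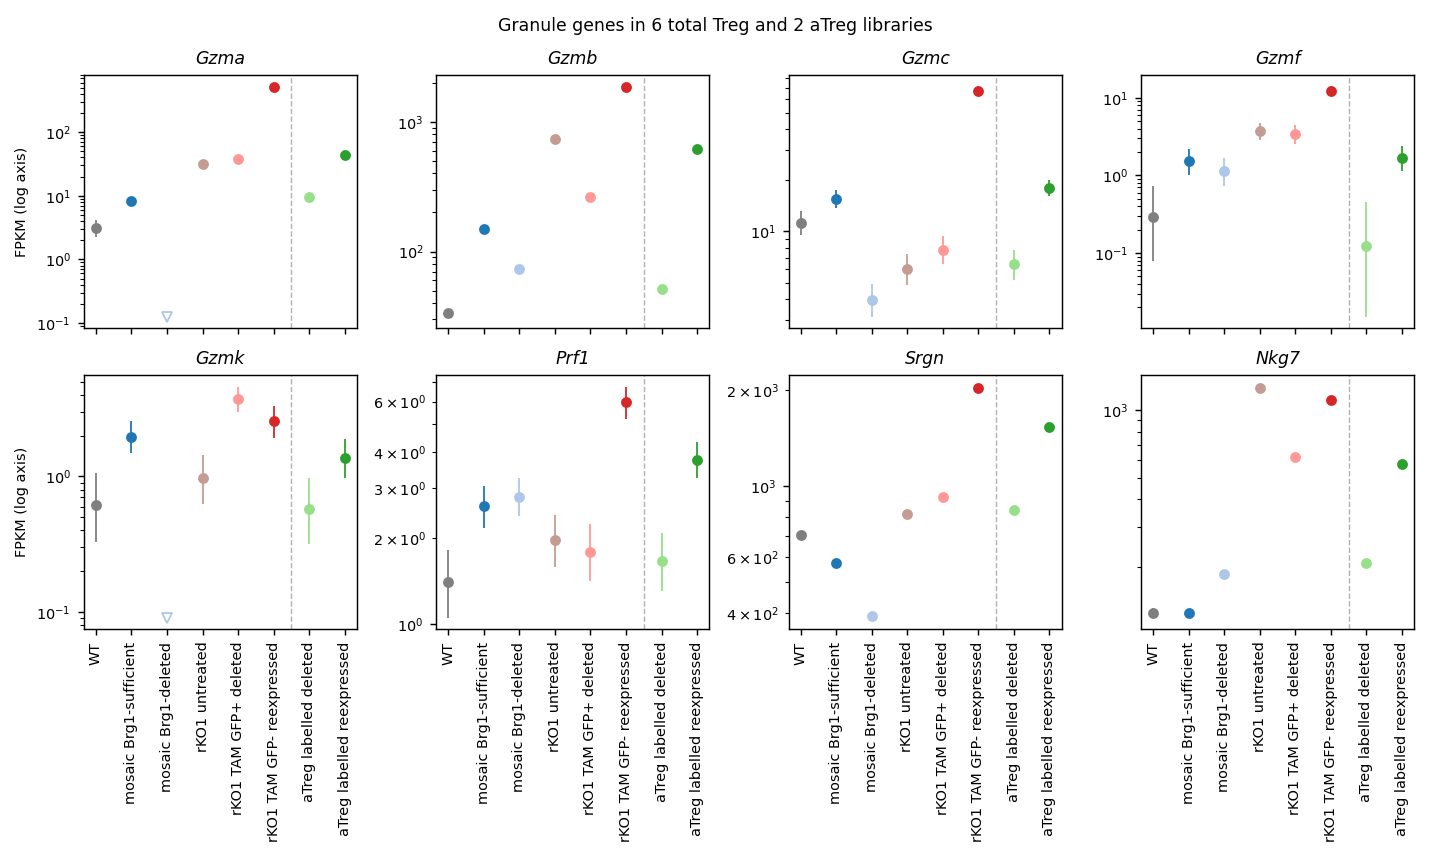
FPKM on a log axis of the 8 detected genes in the 6 total Treg libraries and, right of the dashed line, the 2 aTreg libraries. Points are single libraries, bars are exact 95% Poisson intervals of the reads (counting error only), and open triangles are the level of 3 reads for libraries at 0. Gzma, Gzmb, Gzmc, Gzmf, Prf1 and Srgn were highest in the GFP- reexpressed library.

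The make-up of the granzymes also differed between libraries. Summed over the 7 granzymes, FPKM was 49.02 in the WT, 176 in the mosaic *Brg1*-sufficient, 78.4 in the mosaic *Brg1*-deleted, 773 in the untreated, 318 in the GFP+ and 2467 in the GFP- library. *Gzmb* made up 69.0%, 84.5%, 93.5%, 94.5%, 83.4% and 75.6% of this sum in the same order, and 75.6% and 90.5% in the aTreg libraries labelled deleted and reexpressed. *Gzmc* took 22.8% in the WT library and 0.776% in the untreated rKO1 library, and *Gzma* took 21.1% in the GFP- library, its highest share. Set against serglycin, the proteoglycan that binds them, the summed granzymes were at 0.0699 times the FPKM of *Srgn* in the WT and at 1.22 times in the GFP- library, with 0.305 and 0.199 in the mosaic pair and 0.942 and 0.345 in the untreated and GFP+ libraries. The ratio of *Gzmb* to *Prf1* was 24.1 in the WT library and 371, 148 and 313 in the untreated, GFP+ and GFP- rKO1 libraries, so that the granzyme and its pore-forming partner differed between hosts by unlike amounts.

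**Figure D2:**
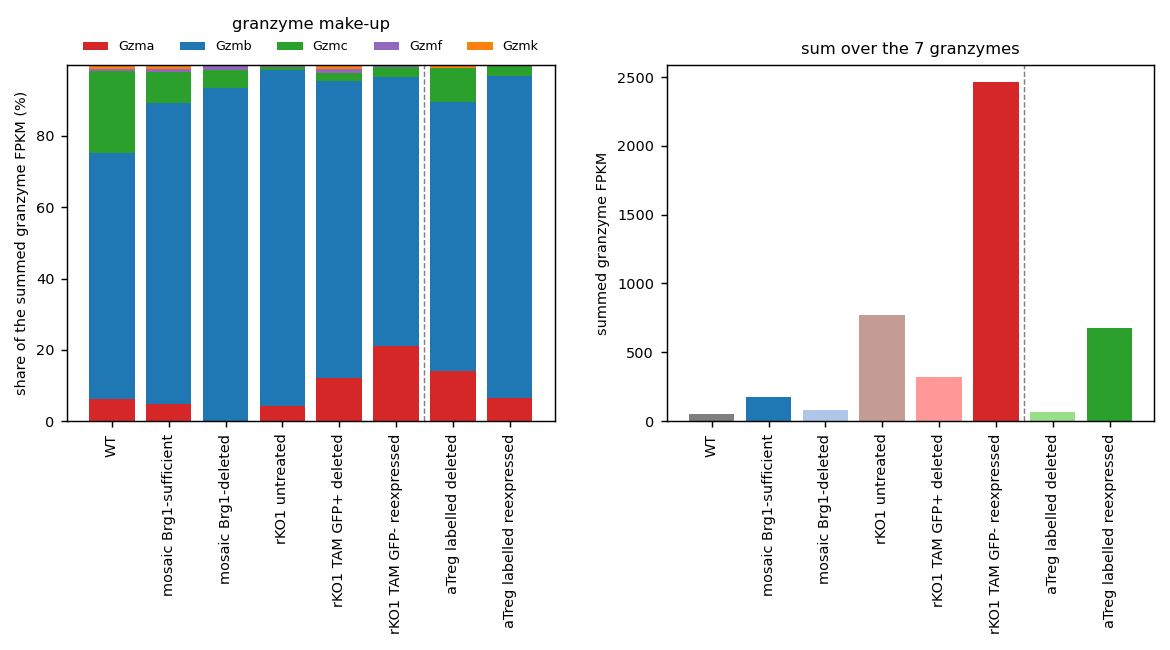
Left, percent of the summed granzyme FPKM that each granzyme took in each library. Right, the sum itself on a linear axis from 0, with 2467 FPKM in the GFP- reexpressed library and 49.02 in the WT library.

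In mosaic females, where *Brg1*-sufficient and *Brg1*-deleted Treg cells share a healthy host, the 3 main granzymes were higher in the *Brg1*-sufficient library. The study labels the deleted cells YFP+ and the sufficient cells YFP-, so the Foxp3YFP-Cre reporter marked only the deleted ones. The part of this difference in sorting in the values below was not tested. *Gzma*, with 172 reads against 0, was at least 65.5-fold higher when the 0 is set to the floor of 3 reads (52.7 at the lower end of counting error), *Gzmc* was 3.93-fold higher (3.07 to 5.08) and *Gzmb* 2.02-fold higher (1.93 to 2.13). *Prf1* did not differ beyond counting error (0.929-fold, 0.737 to 1.17), *Srgn* was 1.47-fold higher (1.44 to 1.49), and *Nkg7* was 1.502-fold lower (1.43 to 1.58). Of the 10 genes 6 passed the filter of 5 CPM in either library, and 3 were at least 2-fold higher and 0 lower, against 6.24% of 10123 genes past 2-fold in either direction and 4.08% higher. *Gzma* (8.26 against 0 CPM) and *Gzmc* (13.9 against 3.53) passed it only through the *Brg1*-sufficient library, where they were higher. The median log2 ratio was 0.78 over the 6 genes, with *Gzma* at its bound, and 0.03 over all genes tested. Below the filter, *Gzmk* had 57 against 0 reads, at least 21.7-fold against the floor (17.1 with counting error), and *Gzmf* 29 against 25. The 2-fold mark was close for *Gzmb*, whose log2 ratio was 1.02, and 0.89 when scaled by total reads. Over all genes 413 were higher and 219 lower, and 306 and 308 by total reads.

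NK cell markers were also higher in the *Brg1*-sufficient library. *Ncr1*, the NK receptor NKp46, had 104 reads in the *Brg1*-sufficient and 1 in the *Brg1*-deleted library, and *Klrb1c*, which encodes NK1.1, 29 and 2. Summed over the 8 NK genes, of which *Klra8* and *Klra4* were at 0 in both, FPKM was 65.4 and 30.5, most of it from *Tyrobp* and *Fcer1g*, which myeloid cells also express. Their part in the differences of *Gzma* and *Gzmk* was not tested. The CD8 markers *Cd8a* and *Cd8b1* summed to 15.8 and 12.8 FPKM.

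After TAM in rKO1 mice, the comparison of GFP- *Brg1*-reexpressed with GFP+ *Brg1*-deleted Treg cells asks what a return of *Brg1* does in an inflamed host. Transcripts of 4 granzymes, perforin and serglycin were higher in the GFP- library. *Gzma* was 13.7-fold (12.6 to 14.8), *Gzmc* 8.62-fold (7.10 to 10.5) and *Gzmb* 7.03-fold (6.85 to 7.22) higher, followed by *Gzmf* at 3.59-fold (2.62 to 4.99), *Prf1* at 3.33-fold (2.57 to 4.36) and *Srgn* at 2.20-fold (2.17 to 2.23). *Nkg7* was 1.80-fold higher (1.75 to 1.84), and *Gzmk* was 1.46-fold lower (1.03 to 2.08), on 56 against 86 reads. Of the 10 genes 8 were tested, and 6 were at least 2-fold higher and 0 lower, against 13.0% of 10481 genes past 2-fold and 6.56% higher. *Gzmf* (11.2 against 3.12 CPM) and *Prf1* (15.4 against 4.62) passed the filter only through the GFP- library, where they were higher. *Gzmk* passed it only through the GFP+ library (5.16 against 3.55 CPM). The median log2 ratio was 1.79 over the 8 genes and 0.01 over all genes. Of all genes tested, 7 had a ratio as high as that of *Gzma* or higher, itself included. Scaling by total reads moved the median of all genes to -0.30 and the calls from 688 higher and 678 lower to 372 and 1263, and took *Srgn* to a log2 ratio of 0.84.

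Here the summed NK markers were lower in the GFP- library, as was *Gzmk*, whereas the other 4 detected granzymes were higher. *Ncr1* had 0 reads in the GFP- and 122 in the GFP+ library, *Klrb1c* 4 and 47, and the 8 NK genes summed to 48.8 and 136 FPKM, while *Gzma* had 8252 and 638 reads. *Cd8a* had 4 reads in the GFP- and 21 in the GFP+ library, *Cd8a* and *Cd8b1* together summed to 8.10 and 6.86 FPKM, and the 6 mast cell and basophil genes summed to 0.681 and 3.24 FPKM. The 4 platelet genes, from a lineage that makes much serglycin, summed to 54.4 FPKM in the GFP- and 90.3 in the GFP+ library, and the 8 myeloid genes to 48.8 and 112. The part of these cell types in the values of the granule genes was not tested.

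**Figure D3:**
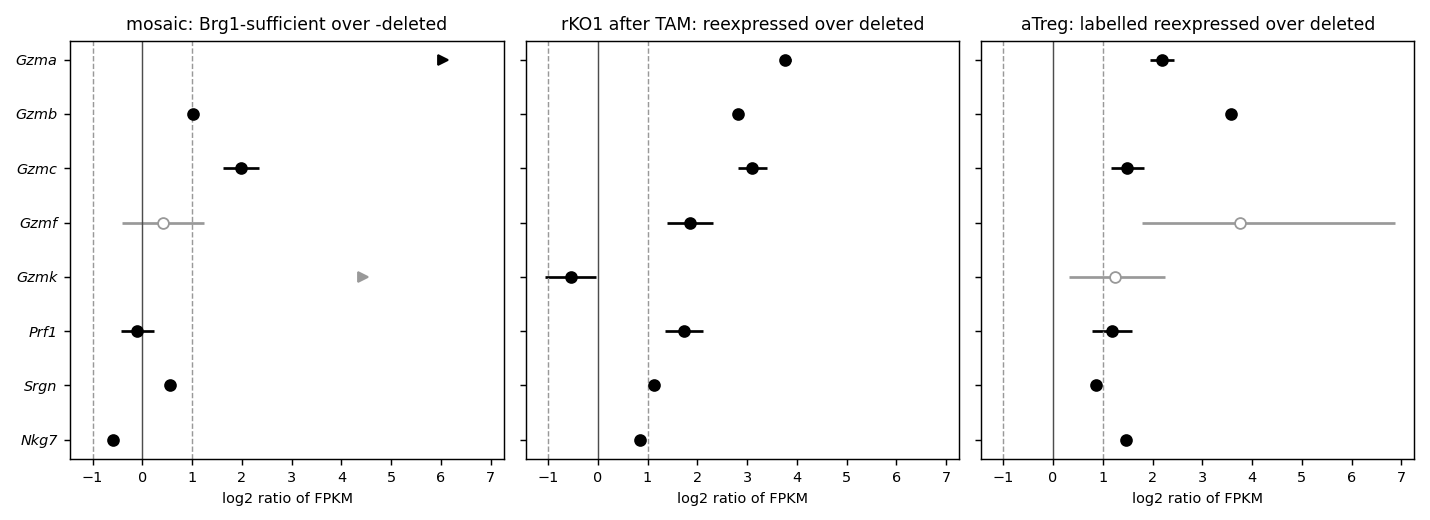
Log2 ratios of FPKM with exact 95% intervals (counting error only) for the 8 detected genes in the mosaic, rKO1 and aTreg pairs. Black symbols passed 5 CPM in either library, grey ones did not, triangles are lower bounds against 0 reads, and dashed lines mark 2-fold. Gzma, Gzmb and Gzmc were past 2-fold in all 3 pairs.

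In the aTreg pair, the library labelled *Brg1*-reexpressed was above the one labelled *Brg1*-deleted for all 8 detected genes. *Gzmb* was 11.9-fold higher (11.2 to 12.6), *Gzma* 4.53-fold (3.84 to 5.38), *Gzmc* 2.82-fold (2.25 to 3.56), *Nkg7* 2.77-fold (2.66 to 2.88), *Prf1* 2.26-fold (1.72 to 2.99) and *Srgn* 1.82-fold (1.80 to 1.85). Here *Gzmb* had the larger ratio and *Gzma* the smaller, the reverse of the total Treg pair, and *Nkg7* passed 2-fold where *Srgn* did not. Of the 10 genes 6 were tested and 5 were at least 2-fold higher, against 6.37% of 10033 genes past 2-fold and 4.06% higher. *Prf1* passed the filter only through the library labelled *Brg1*-reexpressed (9.70 against 4.29 CPM). The median log2 ratio was 1.48 over the 6 genes and -0.10 over all. As *Smarca4* was 1.23-fold lower (1.14 to 1.34) in the library labelled *Brg1*-reexpressed, these directions hold for the labels only. *Ncr1* had 41 reads in the library labelled *Brg1*-reexpressed and 8 in the other, and the 8 NK genes summed to 119 and 40.8 FPKM, of which only *Klra4* and, in the latter, *Klra8* were at 0. *Cd8a* had 59 and 7 reads, its sum with *Cd8b1* was 11.3 and 16.6 FPKM, and the myeloid genes summed to 541 and 378 FPKM. The part of these cells in the granzyme values was not tested. The sex markers differed as well, with *Xist* 3.35-fold higher and the 4 Y-linked genes 2.19-fold to 6.19-fold lower under the label *Brg1*-reexpressed, so that the label and the sex of the mice cannot be told apart.

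**Figure D4:**
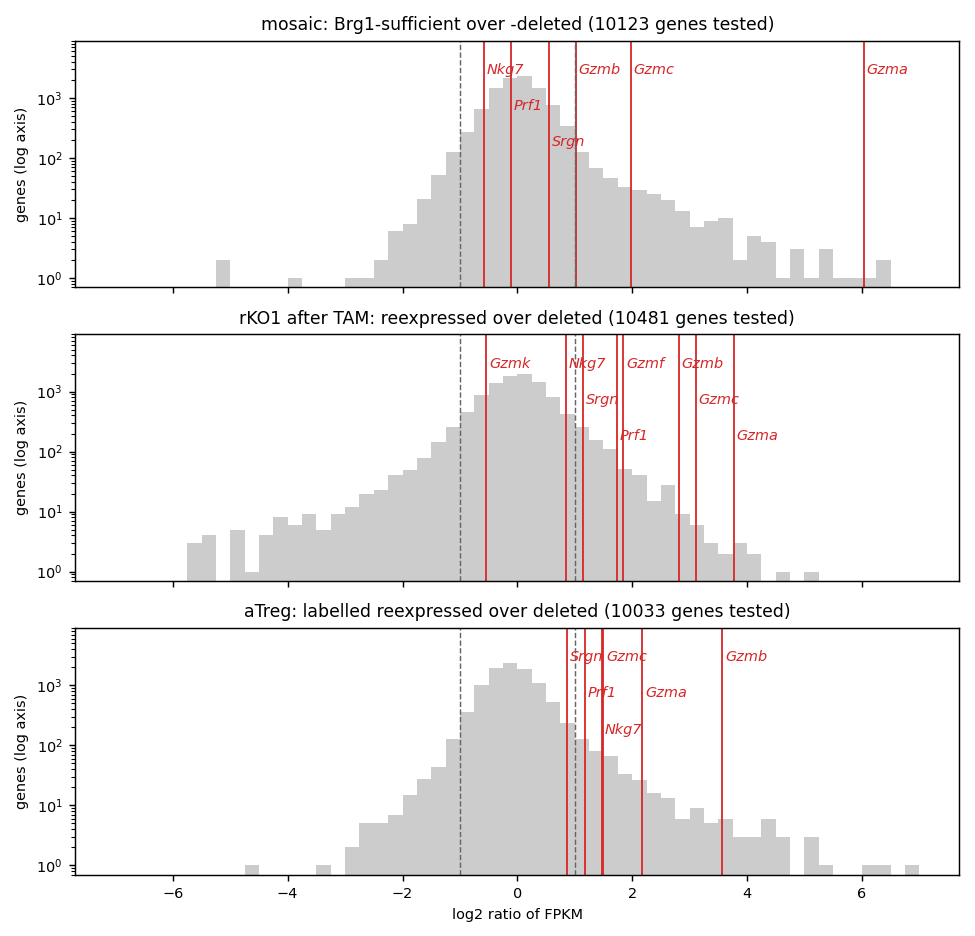
Distribution of the log2 ratio of FPKM over all genes tested in the 3 pairs (grey, counts of genes on a log axis), with the granule genes that passed the filter as red lines and 2-fold as dashed lines. The number tested was 10123 in the mosaic, 10481 in the rKO1 and 10033 in the aTreg pair.

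Pairs of libraries labelled with the same *Brg1* status give a rough yardstick. It was taken as the 95th percentile of the absolute log2 ratio of the 500 genes nearest in level, in WT against mosaic *Brg1*-sufficient and in untreated against GFP+ rKO1 libraries, whichever was wider. In the mosaic pair, *Gzma*, *Gzmb* and *Gzmc* were beyond it, *Gzmb* barely so with 1.018 against 1.004. The log2 ratio of *Gzmb* itself in the same-status pairs was -2.13 (WT over mosaic *Brg1*-sufficient) and -1.46 (GFP+ over untreated), both larger in size than its mosaic ratio. In the rKO1 pair after TAM all 6 genes called were beyond it. In the aTreg pair 4 of the 5 were, and *Prf1* was not, with 1.17 against 1.88. These pairs are not replicates, and they share libraries with the comparisons.

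Untreated rKO1 Treg cells, which lack *Brg1* and come from inflamed hosts, had more *Gzma*, *Gzmb* and *Nkg7* than either control. Against the WT library, *Gzmb* was 21.6-fold (20.1 to 23.3), *Gzma* 10.3-fold (7.66 to 14.2) and *Nkg7* 9.99-fold (9.51 to 10.5) higher. Against the mosaic *Brg1*-sufficient library, they were 4.92-fold, 3.87-fold and 10.04-fold higher, and *Gzmc* was 2.59-fold lower (2.05 to 3.30). In the former 3 of 6 tested genes were higher against 16.0% of genes past 2-fold (8.60% higher, 7.42% lower), and in the latter 3 were higher and 1 lower of 6, against 17.5% (9.91% higher, 7.64% lower). Of those called higher in the former, *Gzma* passed the filter only through the untreated library (32.0 against 3.10 CPM). Over all genes the former had 916 higher and 791 lower (1659 and 468 by total reads) and the latter 1049 and 809 (1638 and 460). Set against the mosaic *Brg1*-deleted library, which also lacks *Brg1* but had a healthy host, *Gzma* was at least 253-fold against the floor of 3 reads (205 with counting error), *Gzmb* 9.96-fold (9.56 to 10.4), *Nkg7* 6.69-fold (6.47 to 6.92) and *Srgn* 2.09-fold (2.05 to 2.12) higher, and *Prf1* was 1.41-fold lower (1.09 to 1.85). There 4 of 6 tested genes were higher, against 15.2% of genes past 2-fold (9.31% higher, 5.91% lower), and the log2 ratio of *Srgn* was 0.98 with TMM scaling. Of those called, *Gzma* passed the filter only through the untreated library. Over all genes 982 were higher and 624 lower, and 1265 and 472 by total reads.

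Platelet genes also differed along this line. They summed to 0.243 and 0.286 FPKM in the mosaic libraries, 28.1 in the WT and 131 in the untreated rKO1 library, and their part in the *Srgn* values was not tested. The 8 NK genes summed to 163 FPKM in the untreated library against 107 in the WT, but *Ncr1* had 7 reads in each.

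Cells that had stayed *Brg1*-deleted after TAM had less *Gzmb* and *Nkg7* than untreated ones. Between the GFP+ and the untreated rKO1 library, *Gzmb* was 2.75-fold lower (2.68 to 2.83) and *Nkg7* 2.02-fold lower (1.97 to 2.07) after TAM, and *Gzmk* was 3.81-fold higher (2.40 to 6.26) on 86 against 24 reads. *Gzma* was 1.20-fold higher (1.07 to 1.34), and *Srgn* 1.12-fold, while *Prf1*, *Gzmc* and *Gzmf* did not differ beyond counting error. Of 7 tested genes 1 was higher and 2 lower, against 4.57% of genes past 2-fold (2.31% higher, 2.26% lower), with 242 higher and 237 lower over all genes and 192 and 356 by total reads. The gene called higher, *Gzmk*, passed the filter only through the GFP+ library (5.16 against 1.36 CPM). *Ncr1* had 122 reads in the GFP+ and 7 in the untreated library, and the 8 NK genes summed to 136 and 163 FPKM, so that the marker and the sum pointed opposite ways. Their part in the *Gzmk* value was not tested. *Xist* had 935 reads in the GFP+ and 10 in the untreated library, so that TAM and the sex of the mice cannot be told apart here.

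The GFP- *Brg1*-reexpressed library exceeded both controls for each of the 7 genes tested. Some of these passed the filter of 5 CPM only through the GFP- library. *Gzma* (3.10 CPM), *Gzmf* (0.263) and *Prf1* (3.62) were below it in the WT library, and *Gzmf* (1.39) in the mosaic *Brg1*-sufficient one. Against the WT library, *Gzma* was 169-fold (127 to 230), *Gzmb* 55.1-fold (51.2 to 59.4), *Gzmf* 42.6-fold (16.3 to 158), *Nkg7* 8.90-fold, *Gzmc* 5.99-fold, *Prf1* 4.25-fold and *Srgn* 2.89-fold higher, where 17.4% of genes were past 2-fold (9.23% higher, 8.16% lower). Against the mosaic *Brg1*-sufficient library, *Gzma* was 63.2-fold (54.4 to 74.0), *Gzmb* 12.6-fold, *Nkg7* 8.94-fold, *Gzmf* 8.05-fold, *Gzmc* 4.32-fold, *Srgn* 3.52-fold and *Prf1* 2.30-fold higher, where 21.9% were (12.0% higher, 9.94% lower). The latter had 1246 genes higher and 1035 lower, and 949 and 1298 by total reads. The log2 ratio of *Prf1* there was 1.20, not beyond the yardstick of 1.36. The controls themselves differed: *Gzmb* was 4.39-fold (4.06 to 4.75) and *Gzma* 2.67-fold (1.92 to 3.77) lower in the WT than in the mosaic *Brg1*-sufficient library, 2 of 6 tested genes, with 0 higher, against 9.67% of genes past 2-fold (5.64% higher, 4.03% lower). Of those called, *Gzma* passed the filter only through the mosaic *Brg1*-sufficient library (8.26 against 3.10 CPM). Over all genes 579 were higher in the WT library and 413 lower, and 427 and 523 with TMM scaling. All comparisons with the GFP- library share it, as those with a control share that control.

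**Figure D5:**
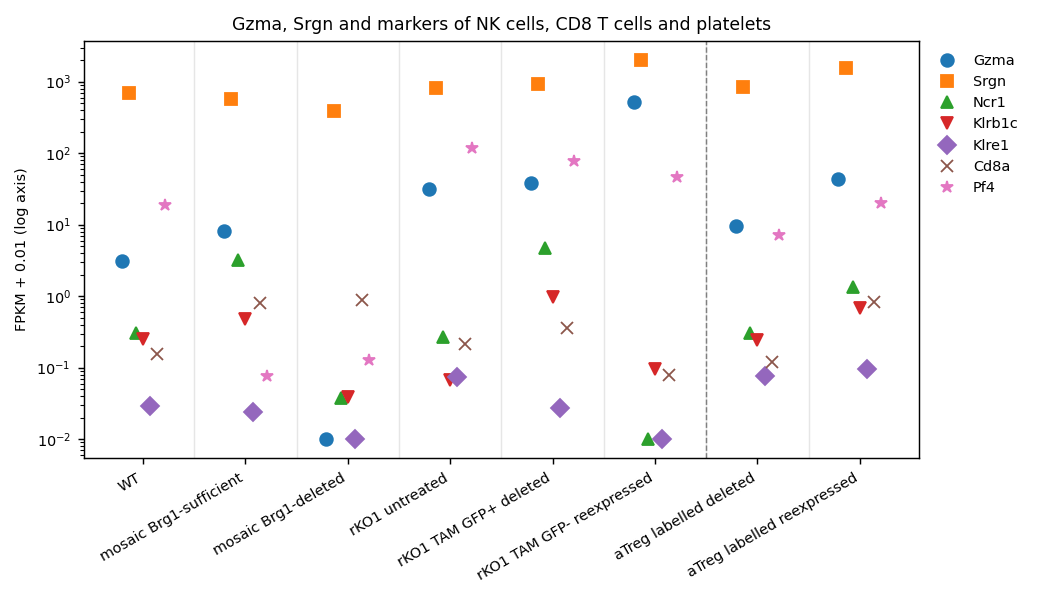
FPKM, with 0.01 added and on a log axis, of Gzma and Srgn beside the NK markers Ncr1, Klrb1c and Klre1, the CD8 marker Cd8a and the platelet marker Pf4 in each library, with the aTreg libraries right of the dashed line. Gzma was highest in the GFP- library, where Ncr1 had 0 reads and the full list of 8 NK genes summed to 48.8 FPKM. The part of these cell types in the Gzma and Srgn values was not tested.

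Other genes of the granule pathway were taken from 8 lists of 44 genes. Of these, 35 passed the filter in the mosaic pair, and the *Brg1*-sufficient library had 6 of them higher and 1 lower. There were 36 in the rKO1 pair after TAM of which 6 were higher and 3 lower in GFP- cells, and 34 in the aTreg pair with 1 higher and 0 lower under the label *Brg1*-reexpressed. Their median log2 ratios were 0.35, 0.24 and 0.14. Over all genes tested, 4.08% were higher and 2.16% lower in the mosaic pair, 6.56% and 6.47% in the rKO1 pair, and 4.06% and 2.31% in the aTreg pair.

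The release machinery was the longest list. Of its 12 tested genes 4 were at least 2-fold higher in the GFP- library, against 6.56% of all genes tested. They were *Sytl2* (4.70-fold, 3.96 to 5.61), a synaptotagmin-like protein that tethers granules, and *Vamp8* (3.07-fold, 2.70 to 3.50), a granule SNARE. The others were *Sytl1* (2.95-fold, 2.62 to 3.32) and *Stx11* (2.51-fold, 2.31 to 2.73), a SNARE needed for cytotoxic granule fusion. *Unc13d* and *Rab27a*, which prime and dock granules, were at 18.2 and 23.9 FPKM and at 10.4 and 11.1 FPKM in the GFP+ and GFP- libraries, both under 2-fold. *Stx11* was also 2.59-fold higher (2.29 to 2.94) in the mosaic *Brg1*-sufficient library, the 1 of 11 tested genes past 2-fold there, and in the aTreg pair 0 of 10 were. Of all genes tested, 6.24% and 6.37% were past 2-fold in these pairs.

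Proteases, inhibitors and membrane proteins were mixed. *Ctsw*, a cathepsin of NK and CD8 T cells, was 4.11-fold lower (3.88 to 4.35) in GFP- than in GFP+ cells, with 50.2 against 206 FPKM, and 1.94-fold lower in the mosaic *Brg1*-sufficient library. *Ctsc*, the dipeptidase that activates granzymes, was at 18.9 and 24.3 FPKM in the GFP+ and GFP- libraries, and *Ctsh* was 2.06-fold higher in the aTreg library labelled *Brg1*-reexpressed. Of the other proteases none passed 2-fold in these 3 pairs. The inhibitor *Cst7*, which acts on cathepsin C, was 3.79-fold higher (3.53 to 4.06) in the mosaic *Brg1*-sufficient library, and its levels ran from 43.6 FPKM in the mosaic *Brg1*-deleted to 395 in the GFP- library. *Serpinb1a* was 2.32-fold higher in the same pair, and *Serpinb9*, the inhibitor of granzyme B, stayed at 4.28 to 7.62 FPKM over the 6 total Treg libraries. *Lamp2* was 2.16-fold higher and *Cd63* 2.06-fold lower (1.52 to 2.83) in the GFP- library. The 4 genes of chondroitin sulphate synthesis, which builds the side chains of serglycin, gave 3 tested genes and 0 past 2-fold in each of the 3 pairs, and of the 3 other granzymes *Gzmg* and *Gzmn* had 0 reads in every library and *Gzmm* was at 0.195 to 0.734 FPKM.

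*Fasl*, which encodes a death ligand of the granule-independent route, was lower in the libraries with more granzyme of the mosaic pair and the rKO1 pair after TAM. It was 2.50-fold lower (2.07 to 3.03) in the mosaic *Brg1*-sufficient and 2.41-fold lower (1.96 to 2.98) in the GFP- library. It was 1.80-fold higher in the aTreg library labelled *Brg1*-reexpressed, and *Tnfsf10* was under 2-fold in all 3 pairs. In the untreated rKO1 library, which had more granzyme than the WT library, *Fasl* was 3.00-fold higher (2.43 to 3.73) than in WT. Among the transcription factors of effector T cells, *Prdm1* was 5.62-fold (4.50 to 7.07), *Tbx21* 4.70-fold (3.37 to 6.69) and *Id2* 4.47-fold (4.20 to 4.76) higher in the mosaic *Brg1*-sufficient library. These were 3 of 5 tested, against 4.08% of all genes higher. In the rKO1 pair after TAM only *Prdm1* was past 2-fold (3.37-fold, 2.98 to 3.82), 1 of 5, against 6.56% of all genes higher. In the aTreg pair 0 of 5 were past 2-fold, against 6.37% of all genes. *Runx3* was at 4.34 and 7.98 FPKM in the mosaic *Brg1*-deleted and *Brg1*-sufficient libraries and at 10.7 and 10.1 in the GFP+ and GFP- libraries.

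Likeness of profile over the 6 total Treg libraries was measured as the root mean square difference of centred log2 levels among 11177 genes. Among the genes nearest to *Gzmb* were *Syngr3* (0.71) and *Perp* (0.72), both far lower in level, with 3.46 and 4.61 FPKM in the GFP- library. Those of *Gzma* were *Ifi211* (1.57), *Havcr2* (1.64) and *Cxcr3* (1.65), none of them close. *Srgn* was closest to *Racgap1* (0.09), *Pttg1* (0.11) and *Cks1b* (0.12), which act in cell division, *Nkg7* to *Gm2974* (0.35), *Phlda3* (0.41) and *Cysltr2* (0.42), and *Prf1* to *Gm10273* (0.14), *Ndrg1* (0.24) and *Gm13461* (0.26), the last a processed pseudogene. Among the members themselves *Gzmb* was nearest to *Gzmf* (0.55) and then to *Nkg7* (0.92), and *Prf1* was nearest to *Srgn* (0.67). With 6 single libraries these values are descriptions only.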

How the data were processed

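RNA of sorted Treg cells was amplified with the SMART-Seq v4 kit, which keeps no strand, and sequenced as read pairs. The submitters' processing notes name HISAT2 2.0, StringTie 1.3.3b, featureCounts 1.5.0-p3 and mm10, and the annotation is not given in the sources used here. The authors deposited FPKM values per gene, with 1 file per library. Total Treg and aTreg files came from separate experiments and were never compared with each other.

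With merged exon lengths of GENCODE M21, FPKM were converted to multiples of 1 read, which were whole (within 0.05) in every library for 93.69% of 26020 genes of the total Treg files, for all 21242 genes of the aTreg files and for all 10 members. Of 53465 identifiers 105 were not in the annotation. Per read, the scaling inside the FPKM values differed from total reads by a factor of 0.815 to 1.08. The study's 2-fold rule was applied to FPKM among genes of at least 5 CPM in either library, with values under 3 reads raised to 3. A gene could pass this filter through its higher library alone. The study's adjusted p was not used, as with 1 library per condition no spread can be estimated. Members, gene lists and motifs were chosen with earlier results of these data known. Genes outside the 10 were named from the lists where past 2-fold in the mosaic, TAM or aTreg pair, at most 4 per list, besides the 3 nearest profiles, of which 1 is not reported here. *Ctsc*, *Unc13d*, *Rab27a*, *Runx3*, *Serpinb9*, *Tnfsf10* and *Gzmm* were named after their values were seen. Read recovery, TMM (trimmed mean of M-values) scaling and calls were tested on simulated data. Python 3.11.15, NumPy 2.4.6, SciPy 1.17.1, pandas 2.3.3, Biopython 1.88 and matplotlib 3.10.9 were used. Other scalings, pseudocounts, filters and a 1.5-fold rule were tried as alternatives.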

Additional observations from a re-analysis of the deposited data

Results flagged for a closer look

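Ratios of 3 genes pointed in opposite directions in the mosaic and the rKO1 pair, and in each case the difference between the pairs was not tested. The log2 ratio of *Gzmk* was at least 4.44 in the mosaic pair (57 reads against 0) and -0.54 in the rKO1 pair (56 against 86). *Ncr1* and the sum of the 8 NK genes ranked the total Treg libraries differently. The GFP- library had 0 *Ncr1* reads, an NK sum of 48.8 FPKM and *Gzmk* at 2.55 FPKM. In the GFP+ library these values were 122 reads, 136 FPKM and 3.72 FPKM. Without TAM, rKO1 cells had 7 reads, 163 FPKM and 0.976 FPKM. Among mosaic cells, the deleted library had 1 read, 30.5 FPKM and 0 FPKM. The sufficient one had 104 reads, 65.4 FPKM and 1.97 FPKM. For WT cells they were 7 reads, 107 FPKM and 0.616 FPKM. The part of NK cells in the *Gzmk* values was not tested. The log2 ratio of *Prf1* was -0.11 in the mosaic pair, where the interval of the ratio included 1, and 1.74 in the rKO1 pair. That of *Nkg7* was -0.59 in the mosaic and 0.85 in the rKO1 pair, both under 2-fold.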

How the results depend on the processing

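The number of granule genes at least 2-fold higher was within 1.5 times its value in every comparison and alternative, other than between the GFP+ and untreated rKO1 libraries, where it was 0 with TMM and 0 with median-of-ratios factors against 1, as *Gzmk* then fell below 5 CPM. No called ratio changed sign, and 334 of 400 member ratios stayed within their counting interval, with the other 66 outside it. The share of all genes past 2-fold in the mosaic, rKO1 and aTreg pairs was 6.24%, 13.0% and 6.37%, and 20.4%, 30.9% and 20.6% at 1.5-fold, 3.38%, 7.26% and 3.00% with 1 added to FPKM, 17.6%, 23.9% and 19.3% among genes over 3 reads, and 10.2%, 17.1% and 10.1% among genes of at least 1 FPKM. No paired analysis was possible because each condition was 1 library and no replicate numbers are shared. Without replicates, counting error is the only error known here.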
